A study of Mus musculus with 9 samples.

Results

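The genes described here make and break down prostaglandins or encode phospholipases A2 that are active in epidermis. A list of 10 genes was set, and each gene was taken with every probe set whose platform annotation gives it as the only symbol. By that rule 8 of the 10 genes were read, by 14 probe sets, among 18193 genes read in all. Ptgs1, the constitutive cyclooxygenase gene, has 0 probe sets under its name in the annotation used here. Ptges3, which encodes a co-chaperone that is also a cytosolic prostaglandin E synthase, has 2 probe sets that name a pseudogene as well. Neither gene was analysed here.

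The data compare 4 arrays labelled Alox12b-KO with 5 arrays labelled wildtype, each of trunk epidermis from newborn mice. Alox12b encodes an epidermal lipoxygenase of the skin barrier. Parents were heterozygous for the knockout, and pups were killed at birth and genotyped. The epidermis was pulled off the dermis after 30 seconds in buffered saline at 56 °C. The labels name the strain 129S6 for the wildtype samples and no strain for the knockout samples. They do not name the deleted part of the gene or the litters, and they call the samples of a group biological replicates. No treatment was given to either group.

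Phospholipases A2 cut a fatty acid from membrane phospholipids, and arachidonic acid is the one from which prostaglandins are made. Cyclooxygenases turn arachidonic acid into an unstable endoperoxide, and terminal synthases turn that into single prostaglandins, of the E type by Ptges and Ptges2 and of the D type by Ptgds. Hpgd starts their inactivation. In skin, keratinocytes make prostaglandin E, and the cyclooxygenase gene Ptgs2 is known as an early response gene that injury and irritants induce.

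All values are log2 expression values, with array medians from 3.14 to 3.31. Markers of the labelled tissue were bright: the mean of 8 suprabasal keratinocyte genes lay between 12.90 and 13.20 on all 9 arrays. Alox12b read 10.84 to 11.60 on the knockout arrays and 10.56 to 11.32 on the wildtype arrays, and the position of its probes in the gene is not known here, so it checks nothing about the labels. Xist, the RNA of the inactive X chromosome, read 9.99 to 10.20 on the knockout arrays and 10.95 on wildtype array 4, but 3.23 to 4.32 on the other wildtype arrays, so that genotype and sex mostly went together. The fibroblast list ran highest on knockout array 4, at 8.83, and lowest on wildtype array 5, at 5.03. The adipocyte list ran highest on wildtype array 3, at 7.32. Without these 3 arrays together 0 of the 8 genes passed the adjusted threshold given below, in a fit where 123 of all 18193 genes passed.

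None of the 8 genes passed the threshold used here, a limma p of 0.05 after Benjamini-Hochberg adjustment over all 18193 genes, which 1.24% of all genes passed. An unadjusted limma p under 0.05 was found for 3 of the 8, Ptgs2, Ptges and Pla2g2f, each with the higher mean in knockout. Over all genes 17.8% had an unadjusted p under 0.05, and 7.08% had it with the higher mean in knockout. Differences are knockout minus wildtype throughout, and 6 of the 8 were above 0, as were 53.5% of all genes. Their median was 0.40, against 0.02 over all genes, and the median of their sizes without sign was 0.48, against 0.18. On the probe set that stands for each gene, the brightest one, the groups overlapped for all 8 genes, while they did not overlap for 8.28% of all genes. Of the 14 probe sets 0 passed after adjustment over all 34945 that name 1 gene, of which 1.1% passed. An unadjusted p under 0.05 was found for 6 of the 14, all with the higher mean in knockout, against 16.5% of all probe sets and 6.71% with that direction. Of the 14, 12 had differences above 0, against 54.1% of all. In bulk epidermis fewer cells of a type and less RNA per cell cannot be told apart.

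**Figure D1:**
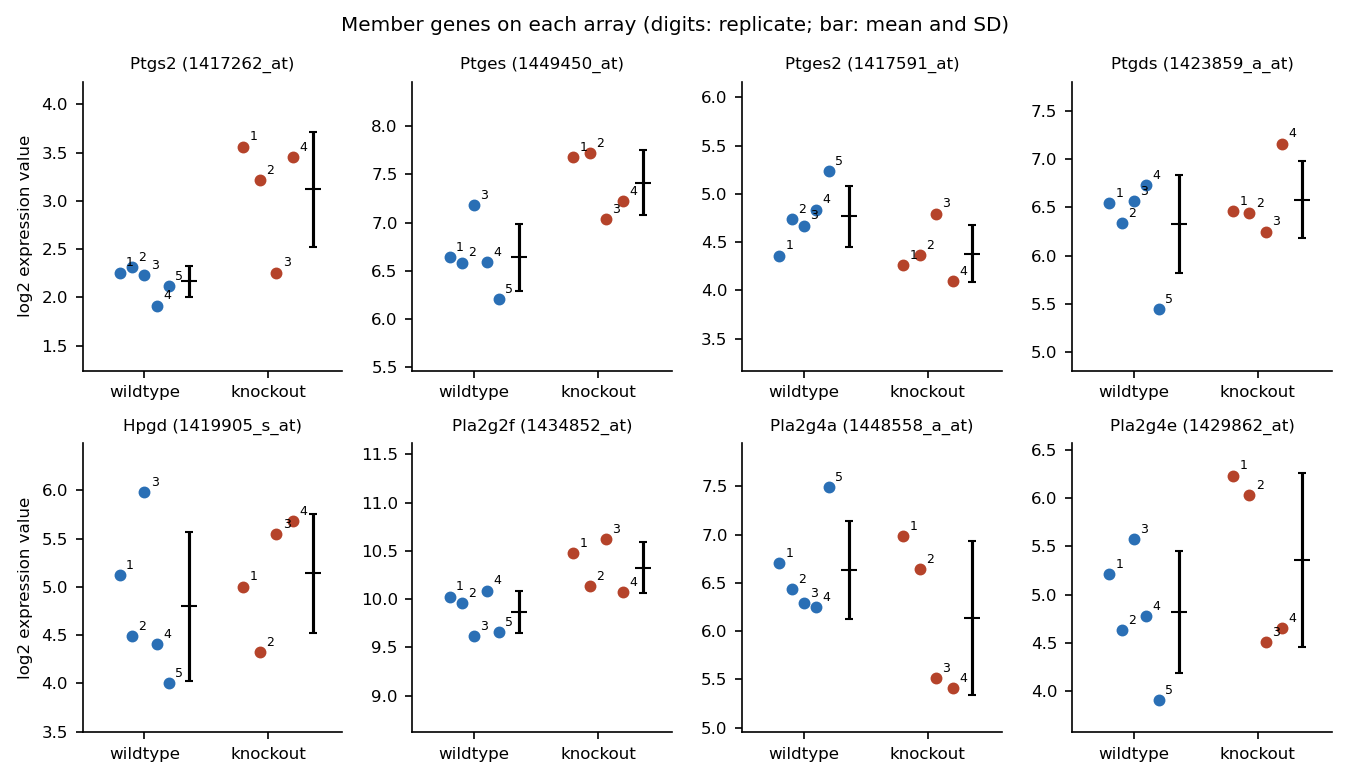
Log2 expression value of each of the 8 genes on each array, by the brightest probe set, with wildtype in blue and knockout in red. Digits give the replicate number, black bars the mean and SD of 5 wildtype or 4 knockout arrays, and all panels span the same height of log2 units; Ptgs2 stood above every wildtype array on 3 of 4 knockout arrays.

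Ptgs2 encodes the inducible cyclooxygenase. Its brighter probe set, 1417262_at, read 3.56, 3.21, 2.26 and 3.45 on knockout arrays 1 to 4. It read 2.25, 2.32, 2.23, 1.91 and 2.12 on wildtype arrays 1 to 5. Knockout arrays 1, 2 and 4 thus lay above every wildtype array, and knockout array 3 lay among them. The means were 3.12 ± 0.59 (SD, n = 4) and 2.17 ± 0.16 (SD, n = 5). The difference was 0.95 with an SE of 0.24 and a limma adjusted p of 0.0850. As a ratio of the signals this was 1.94, with a 95% interval from 1.35 to 2.79, and with wildtype this dim it is not a measured ratio of RNA amounts. Without knockout array 3 the difference was 1.24 and the limma adjusted p 0.00358, so that the gene passed, as did 1.21% of all genes. With array weights the difference was 1.05 and the limma adjusted p 0.00171, in a fit where 9.04% of all genes passed. Those weights were low for knockout arrays 3 and 4, at 0.323 and 0.313, and for wildtype array 5, at 0.359, and highest for knockout array 2, at 3.37. Over all alternatives the limma adjusted p of Ptgs2 ran from 0.00171 to 0.541. The highest came with the Xist level as a covariate, where the difference was 1.16. Wildtype array 4, the wildtype array with high Xist, had the lowest of all 9 values.

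The other Ptgs2 probe set, 1417263_at, did not share this pattern. It read 2.21, 2.02, 2.31 and 2.43 on the knockout arrays and 2.53, 1.90, 2.31, 2.01 and 2.00 on the wildtype arrays. All 4 knockout values lay within the wildtype range, the difference was 0.09 and its 95% interval ran from -0.24 to 0.42. With the mean of both probe sets the difference of Ptgs2 was 0.52, and the limma adjusted p 0.121. Both probe sets are dim. For scale, the Y-linked gene Eif2s3y read 2.00 to 2.43 on the 5 arrays with high Xist. Background differs between probe sets, and whether Ptgs2 in wildtype lay above its own was not tested.

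Ptges encodes the inducible, membrane-bound prostaglandin E synthase, which works downstream of Ptgs2. All 3 of its probe sets had the higher mean in knockout. The brightest, 1449450_at, read 7.68, 7.72, 7.04 and 7.22 on knockout arrays 1 to 4. On wildtype arrays 1 to 5 it read 6.64, 6.58, 7.18, 6.59 and 6.21. Wildtype array 3, at 7.18, lay above knockout array 3, and the other knockout arrays lay above all wildtype arrays. The means were 7.41 ± 0.34 (SD, n = 4) and 6.64 ± 0.35 (SD, n = 5). The difference was 0.77 with an SE of 0.21 and a limma adjusted p of 0.102, a ratio of 1.71 with a 95% interval from 1.25 to 2.34.

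On probe set 1449449_at Ptges read 6.91, 6.98, 6.05 and 6.07 in knockout against 5.77, 5.29, 5.95, 5.34 and 5.37 in wildtype. This was the 1 probe set of the 14 on which the groups did not overlap, as they also did not on 7.39% of all probe sets that name 1 gene, and on 2.84% with knockout higher. Its difference was 0.96, and the limma p adjusted over all such probe sets was 0.0886. Probe set 1439747_at read 7.33 and 7.22 on knockout arrays 1 and 2 and 6.24 and 5.62 on knockout arrays 3 and 4. Its wildtype values ran from 5.21 to 6.15, so that knockout array 4 lay inside them, and its difference was 0.85. Leaving out single arrays kept the difference of Ptges between 0.67 and 0.91. It passed with array weights, at 0.97 and a limma adjusted p of 0.00246, as did 9.04% of all genes. Over all alternatives the limma adjusted p of Ptges ran from 0.00246 to 0.681. The highest came with the Xist level as a covariate, where the difference was 0.76.

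**Figure D2:**
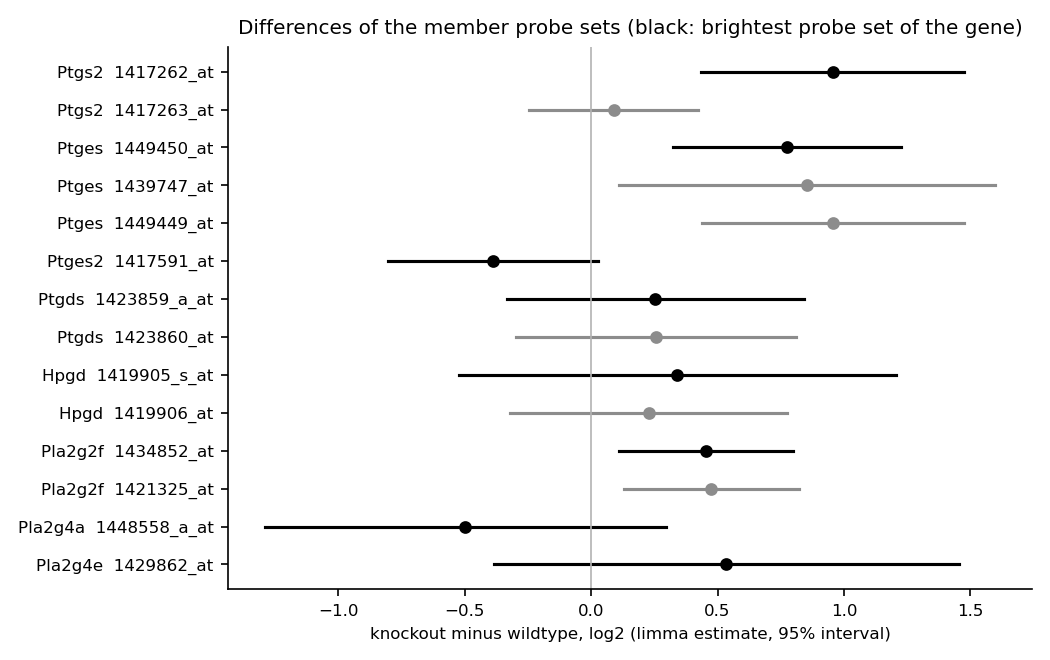
Difference between knockout and wildtype on the log2 scale for each of the 14 probe sets, with 95% intervals from limma. Black marks the brightest probe set of each gene and grey the others; all 3 Ptges probe sets and both Pla2g2f probe sets have intervals above 0, and the second Ptgs2 probe set lies near 0.

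Ptgs2 and Ptges had the largest differences of the set, so the sequences before their RefSeq starts are given to show which short motifs they hold. The sequences are from RefSeq on GRCm38.p6, each is written 5′ to 3′ on the strand of its gene, and capitals mark motif matches. Ptgs2 lies on the plus strand and its stretch is chr1:150099781-150100030, and Ptges lies on the minus strand and its stretch is chr2:30903298-30903547.
Ptgs2: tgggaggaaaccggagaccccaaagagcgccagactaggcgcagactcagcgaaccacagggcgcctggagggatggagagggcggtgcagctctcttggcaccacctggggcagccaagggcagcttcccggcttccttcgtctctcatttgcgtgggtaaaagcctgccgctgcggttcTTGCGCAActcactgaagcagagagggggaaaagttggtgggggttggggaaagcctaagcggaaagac
Ptges: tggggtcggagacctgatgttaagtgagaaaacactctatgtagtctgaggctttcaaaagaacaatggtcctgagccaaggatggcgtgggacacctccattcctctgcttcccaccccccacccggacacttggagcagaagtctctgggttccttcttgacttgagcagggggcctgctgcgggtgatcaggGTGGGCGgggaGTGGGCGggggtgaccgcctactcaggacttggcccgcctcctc
A further match in Ptgs2 lies just after the start, at chr1:150100037-150100060.
Ptgs2 after the start: accactACGTCACGTGgagtccgc

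The search covered 5 motifs on both strands in windows from 250 bases before to 50 bases after a start, for all 8 genes and for 32851 windows in all. Positions count from the start, with bases before it negative. The core of the EGR site, GTGGGCG, occurred 2 times in the Ptges window, at -55 and -44, and 7.97% of all windows held it at least once and 0.883% at least 2 times. The Hpgd window also held it 2 times. The Ptgs2 window held TTGCNNAA, a C/EBP type motif, at -69, as 10.8% of windows do. It held the cAMP response element core TGACGT at 13, read on the other strand, and the E-box CACGTG at 17, and these 2 matches overlap. Windows with these motifs made up 7.51% and 7.15% of all. The Ptges2 window also held the E-box, at -77, and the Pla2g4e window the C/EBP type motif, at -27. The AP-1 motif TGANTCA, in 7.81% of windows, had 0 matches in Ptgs2 and Ptges and 1 in Ptgds. A match describes letters only and is not a measured binding site.

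Ptges2 encodes a further membrane-associated prostaglandin E synthase, which is not known as inducible. Its probe set, 1417591_at, read 4.26, 4.37, 4.80 and 4.09 on the knockout arrays. The wildtype arrays read 4.36, 4.74, 4.67, 4.84 and 5.24. Knockout arrays 1 and 4 lay below all wildtype arrays and the other knockout arrays lay among them. The difference was -0.39 with an SE of 0.19 and a limma adjusted p of 0.315, with a 95% interval from -0.81 to 0.03. Its sign was thus opposite to that of Ptges, and the difference between these 2 differences was not tested.

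Ptgds encodes the lipocalin-type prostaglandin D synthase. Its brighter probe set, 1423859_a_at, read 6.46, 6.44, 6.25 and 7.16 in knockout and 6.54, 6.34, 6.57, 6.73 and 5.45 in wildtype. Knockout array 4 was the highest of all arrays and wildtype array 5 the lowest, and the other 7 arrays lay between 6.25 and 6.73. The second probe set, 1423860_at, also had its highest value on knockout array 4, at 5.10, and its lowest on wildtype array 5, at 3.76. The difference was 0.25, with a limma adjusted p of 0.638 and a 95% interval from -0.34 to 0.84. It was 0.06 without knockout array 4, 0.03 without wildtype array 5, -0.17 with the Xist level as a covariate and -0.15 without knockout array 4 and wildtype arrays 3 and 5 together.

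The fibroblast and melanocyte marker lists had the same extreme arrays as Ptgds, and the other lists did not. The smooth muscle list was highest on knockout array 4 but lowest on wildtype array 2. The endothelium list was highest on wildtype array 5. The fibroblast list, with 7 of 7 genes measured, ran from 5.35 to 8.83 in knockout and from 5.03 to 7.44 in wildtype. All 7 of its differences were above 0 and 0 passed. The melanocyte list, with 6 of 6 measured, ran from 4.51 to 5.32 in knockout and from 3.35 to 4.85 in wildtype, with 5 of 6 differences above 0 and 0 passed. Both lists were highest on knockout array 4 and lowest on wildtype array 5. The part of these cells in the Ptgds values was not tested.

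Hpgd encodes the dehydrogenase that starts the breakdown of prostaglandins. Its brighter probe set, 1419905_s_at, which is of a less specific kind, read 5.00, 4.32, 5.55 and 5.69 in knockout. In wildtype it read 5.12, 4.49, 5.98, 4.41 and 4.00, so that both the highest and the lowest value were wildtype and all knockout arrays lay inside that range. The difference was 0.34 with an SE of 0.39 and a limma adjusted p of 0.672, and its 95% interval, from -0.53 to 1.21, holds more than a 2-fold difference upward. On the second probe set, 1419906_at, knockout array 4 stood at 4.64 and the other 8 arrays spanned 3.17 to 3.71. With single arrays left out the difference of the brighter probe set ran from 0.14, when wildtype array 5 was dropped, to 0.64, when wildtype array 3 was dropped. It was 0.61 after dropping knockout array 2, 0.20 after dropping knockout array 3 and 0.16 after dropping knockout array 4. With array weights it was -0.20. The mast cell list, with 7 of 7 measured, was highest on wildtype array 3, at 4.72, as Hpgd was, and lowest on wildtype array 5, at 2.95. Its protease genes Cpa3, Cma1, Tpsb2 and Mcpt4 were all highest on wildtype array 3, at 8.27, 7.39, 5.54 and 4.54. Cpa3 and Cma1 were lowest on wildtype array 5, at 3.73 and 3.12, and next lowest on knockout array 3, at 4.02 and 3.66, where Hpgd was among the higher values. Kit, Ms4a2 and Fcer1a were not highest on wildtype array 3. The mast cell list had 3 differences above 0 and 4 below, and 0 passed. The T cell list was likewise highest on wildtype array 3, at 3.84, and lowest on wildtype array 5, at 3.16. The adipocyte and hair follicle lists were also highest on wildtype array 3, at 7.32 and 6.45. The part of any of these cells in the Hpgd values was not tested.

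**Figure D3:**
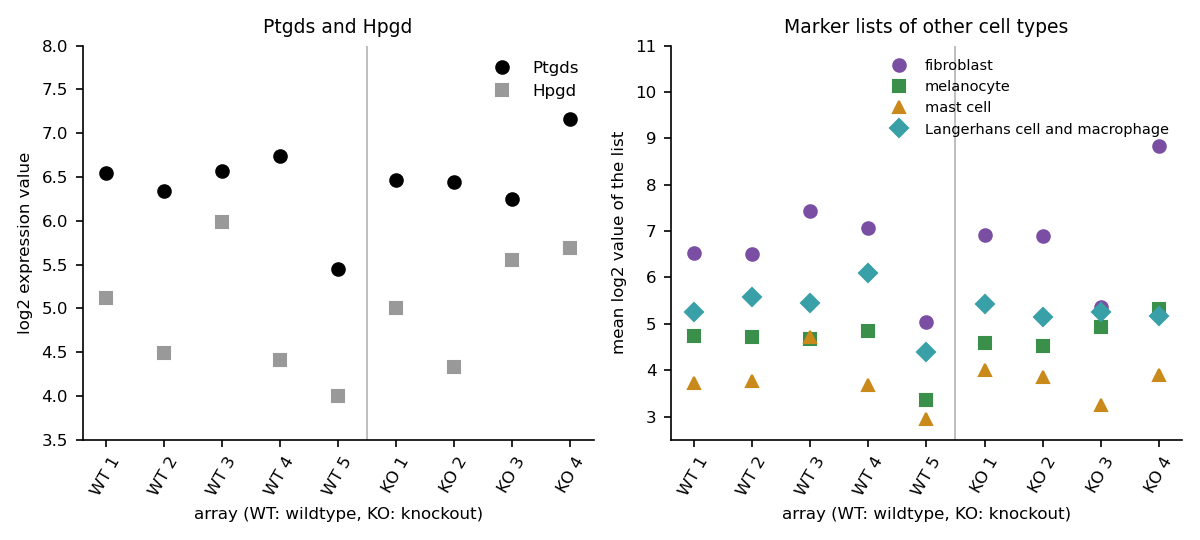
Left, log2 expression values of Ptgds and Hpgd on each array; right, the mean log2 value of 4 marker lists of other cell types on the same arrays, wildtype (WT) first and knockout (KO) after the line. Ptgds and the fibroblast list are both highest on knockout array 4 and lowest on wildtype array 5.

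Among the phospholipases, Pla2g2f encodes a secreted enzyme of the upper epidermis. Its brighter probe set, 1434852_at, read 10.48, 10.13, 10.62 and 10.07 in knockout and 10.03, 9.96, 9.62, 10.09 and 9.65 in wildtype. The groups overlapped only through knockout array 4, which lay just under wildtype array 4. The means were 10.32 ± 0.27 (SD, n = 4) and 9.87 ± 0.22 (SD, n = 5). The difference was 0.45 with an SE of 0.16 and a limma adjusted p of 0.188, a ratio of 1.37 with a 95% interval from 1.08 to 1.74. The second probe set, 1421325_at, read 7.15, 6.80, 7.62 and 7.08 in knockout against 6.55 to 6.87 in wildtype, with a difference of 0.48. On both probe sets knockout array 3 was the highest of all 9 arrays, unlike for Ptgs2 and Ptges, where it was the lowest knockout array on the brightest probe set. With the Xist level as a covariate the difference of Pla2g2f was 0.25. The suprabasal keratinocyte list, with 8 of 8 measured, had 3 differences above 0 and 5 below, 0 passed, and its members differed on knockout array 3. Ivl and Lor, genes of the cornified envelope, were highest of all 9 arrays there, at 12.48 and 14.46, as Pla2g2f was. Lor read nearly the same on wildtype array 3, at 14.45. The desmosomal genes Dsg1a and Dsc1 and the filaggrin gene Flg were lowest on knockout array 3, at 9.90, 11.69 and 12.58. Ivl differed by 0.50, with an unadjusted p of 0.00653 and an adjusted p of 0.135 in limma. Flg differed by -0.28, with an unadjusted p of 0.0497 and an adjusted p of 0.281 in limma. The part of these cells in the Pla2g2f values was not tested.

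Pla2g4a encodes the cytosolic phospholipase with a preference for arachidonic acid. Its probe set, 1448558_a_at, read 6.99 and 6.64 on knockout arrays 1 and 2 and 5.51 and 5.41 on knockout arrays 3 and 4. The wildtype arrays read 6.70, 6.44, 6.29, 6.25 and 7.49. Knockout arrays 3 and 4 therefore lay below every wildtype array and knockout arrays 1 and 2 lay among them. The means were 6.14 ± 0.80 (SD, n = 4) and 6.63 ± 0.51 (SD, n = 5). The difference was -0.50 with an SE of 0.36 and a limma adjusted p of 0.488, and the 95% interval ran from -1.30 to 0.30. Dropping single arrays moved it from -0.78, when knockout array 1 was dropped, to -0.25, when knockout array 4 was dropped. It was -0.29 after dropping knockout array 3 and -0.28 after dropping wildtype array 5. The Xist covariate gave -0.11, dropping the 3 arrays named earlier gave -0.083, and array weights gave 0.079.

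Pla2g4e encodes a cytosolic enzyme of the same family that works mainly as an acyltransferase. Its probe set, 1429862_at, read 6.23 and 6.03 on knockout arrays 1 and 2 and 4.50 and 4.65 on knockout arrays 3 and 4. The wildtype arrays read 5.21, 4.63, 5.57, 4.77 and 3.91. Knockout arrays 1 and 2 thus lay above every wildtype array and knockout arrays 3 and 4 among them. The means were 5.35 ± 0.90 (SD, n = 4) and 4.82 ± 0.63 (SD, n = 5). The difference was 0.53 with an SE of 0.42 and a limma adjusted p of 0.521, and the 95% interval ran from -0.39 to 1.46. Dropping knockout array 1 gave 0.24, dropping knockout array 2 or wildtype array 5 gave 0.31 each, and dropping knockout array 3 gave 0.82. With array weights it was 0.99 and passed, with a limma adjusted p of 0.0463, as did 9.04% of all genes. Knockout arrays 3 and 4 had low weights in that fit, at 0.323 and 0.313. Over all alternatives the limma adjusted p of Pla2g4e ran from 0.0463 to 0.933.

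The knockout arrays were thus unlike each other for several of these genes. Relative to the wildtype mean of the gene, knockout arrays 1 and 2 read 1.41 and 1.21 for Pla2g4e and 1.04 and 1.08 for Ptges. Knockout arrays 3 and 4 read -0.32 and -0.17 for Pla2g4e, and 0.40 and 0.58 for Ptges. For Ptgs2 the arrays fell otherwise, as knockout array 4 read 1.28, close to knockout array 1 at 1.40, and knockout array 3 read 0.09. The basal keratinocyte list, with 7 of 7 measured, read 6.84 at most in knockout and 6.96 to 7.80 in wildtype. Of its differences 6 of 7 were below 0 and 0 passed. The sebocyte list, with 4 of 6 measured, read 5.60 to 6.11 in knockout and 6.33 to 7.01 in wildtype. Of its differences 3 of 4 were below 0. Far2 passed, at -1.81 and a limma adjusted p of 0.0200, as did 1.24% of all genes. The groups did not overlap on either list mean. Among single genes 5.14% had groups that did not overlap with knockout lower, and the share among list means was not taken. The smooth muscle list stood at 5.86 on knockout array 4, where the other 8 arrays spanned 3.40 to 3.84. The part of any of these lists in the members' values was not tested.

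**Figure D4:**
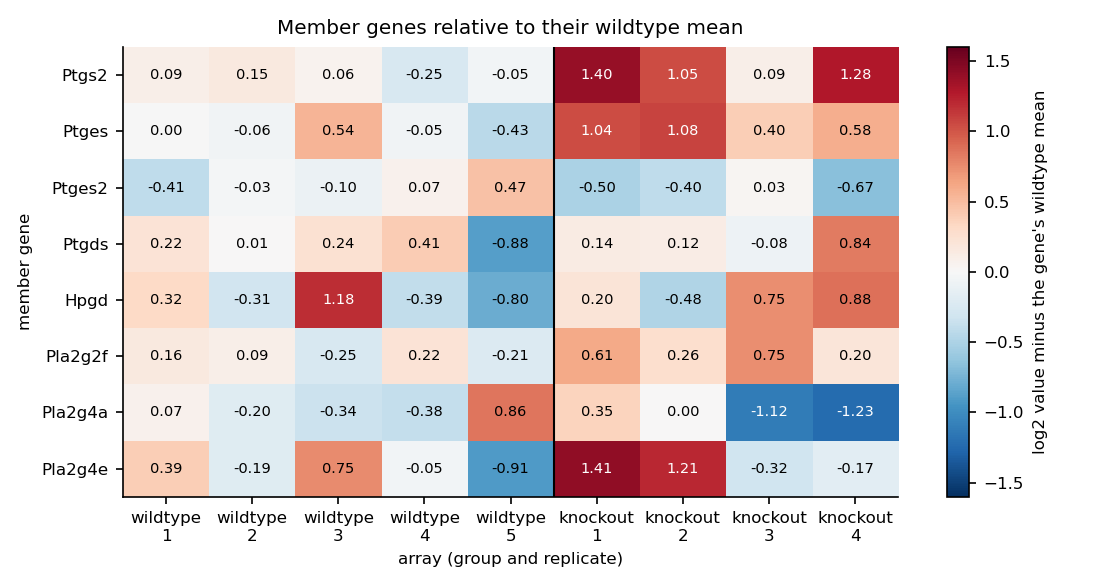
Log2 value of each gene on each array minus the mean of that gene over the 5 wildtype arrays, on a colour scale from blue (lower) to red (higher). Ptgs2 is above its wildtype mean by 1.05 to 1.40 on knockout arrays 1, 2 and 4 and by 0.09 on array 3, and Pla2g4e on knockout arrays 1 and 2 only among the knockout arrays.

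The genes with the most similar course over the 9 arrays were sought for the 3 members with the largest range, Pla2g4e with 2.32, Pla2g4a with 2.09 and Hpgd with 1.98. Likeness was the root mean square distance between values centred on the mean of each gene. For Pla2g4e the nearest were Mapk6, which encodes an atypical MAP kinase, at 0.22, the zinc finger gene Zfp772 at 0.22 and the survival gene Mcl1 at 0.26, while the median distance over all genes was 0.77. Mapk6 read 8.40 and 8.24 on knockout arrays 1 and 2 and 6.87 and 7.12 on knockout arrays 3 and 4. For Pla2g4a they were Mzt1, a gene of the microtubule nucleation complex, at 0.16, Mtfr1 at 0.18 and Nptn at 0.19, against a median of 0.68. Like Pla2g4a, Mzt1 was highest on wildtype array 5, at 7.58, and read 5.51 and 5.54 on knockout arrays 3 and 4. For Hpgd they were the cathepsin gene Ctsl at 0.32, the laminin gene Lama2 at 0.32 and Ddah1 at 0.33, against a median of 0.68. With 9 arrays and 18193 genes some close profiles arise in any case, so these names describe likeness only.

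The wider pathway was read through 43 of 46 further genes in 6 lists. Akr1b3, Pla2g4b and Prdx6 had no probe set of their own. None of the 43 passed the adjusted threshold in limma, 2 had an unadjusted p under 0.05 with the higher mean in knockout and 3 with the lower mean. That is 5 of 43, where 17.8% of all genes had such a p, 7.08% with the higher and 10.7% with the lower mean in knockout. Their median difference was 0.11, with 23 above 0 and 20 below. With array weights 2 of the 43 passed, Abcc4 and Pla2g2d, as did 9.04% of all genes.

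The terminal synthases of other prostanoids gave 0 passes among 8 genes. Hpgds, the D synthase of blood-derived cells, read 4.19 ± 0.27 (SD, n = 4) in knockout and 4.64 ± 0.22 (SD, n = 5) in wildtype, a difference of -0.46. Ptgis, the prostacyclin synthase gene, differed by 0.55, and it stood at 4.71 on knockout array 4, while the other 8 arrays spanned 2.83 to 3.41. The smooth muscle and fibroblast lists were also highest on that array, and their part in the Ptgis values was not tested. Of 9 prostanoid receptors 0 had an unadjusted p under 0.05. Ptger3, a receptor for prostaglandin E, had the largest difference there, -0.71, with values from 4.03 to 5.29 in knockout and from 4.73 to 6.51 in wildtype. Ptgdr, a receptor for prostaglandin D, differed by 0.33, with a high value of 4.42 on knockout array 3.

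Of 5 genes for transport and breakdown, 4 had differences below 0. Abcc4, an exporter of prostaglandins among other substrates, had the largest difference of the 43. It read 4.06, 3.61, 4.01 and 3.07 in knockout and 4.28, 4.75, 4.47, 4.46 and 5.57 in wildtype. The groups did not overlap, and 5.14% of all genes had groups that did not overlap with knockout lower. The difference was -1.02 with an SE of 0.28 and a limma adjusted p of 0.110, so it did not pass. Zadh2, a prostaglandin reductase gene, differed by -0.40.

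Among 10 secreted phospholipases, Pla2g2e, a hair follicle enzyme, read 2.77, 2.88, 3.19 and 3.11 in knockout and 2.47, 2.67, 2.49, 2.65 and 2.47 in wildtype. Its groups did not overlap, and 3.14% of all genes had groups that did not overlap with knockout higher. All its values are dim, and its difference of 0.43 had a limma adjusted p of 0.115. Pla2g10 differed by 0.33 and Pla2g2d, an enzyme of lymphoid tissue, by 0.48. The 7 hair follicle markers all had differences below 0, from -1.36 for Tchh to -0.0011 for Msx2, and 0 of the 7 passed. Their list means were 4.92 to 5.96 in knockout and 5.61 to 6.45 in wildtype. The part of follicle cells in the Pla2g2e values was not tested. Of 3 other cytosolic group IV enzymes, Pla2g4f read 8.28 ± 0.22 (SD, n = 4) in knockout and 8.63 ± 0.16 (SD, n = 5) in wildtype, so it differed by -0.35, and its limma adjusted p was 0.221. Pla2g4c differed by 0.27. In the last list of 8 phospholipases and related hydrolases, Pla2g6 differed by 0.27 and Plaat3 by -0.25, the largest in each direction.

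**Figure D5:**
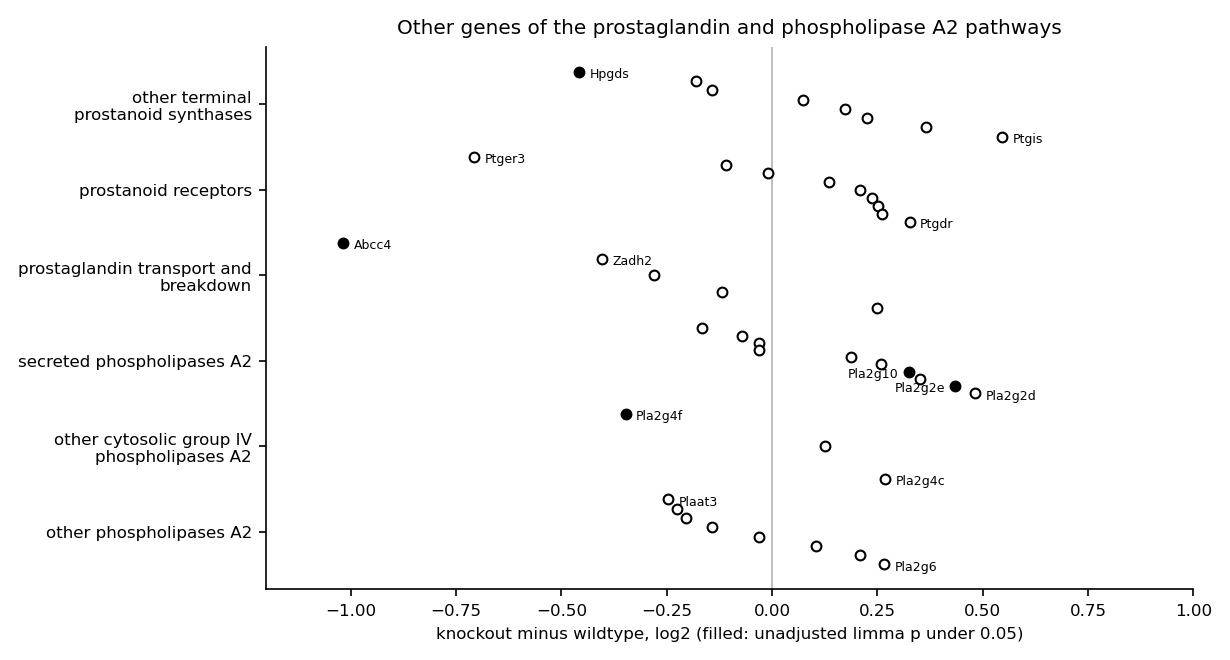
Difference between knockout and wildtype on the log2 scale for the 43 further pathway genes, 1 point a gene, by list. Filled points have an unadjusted limma p under 0.05, 5 in all, and the names are those of genes described in the text; Abcc4 lies lowest at -1.02.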

How the data were processed

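Per the labels' protocols, RNA of 9 samples of newborn mouse epidermis was hybridised to the Mouse Genome U430 2.0 array of Affymetrix, whose probe sets read mostly the 3′ end of transcripts. The authors deposited log2 values of expression in 1 table, for 45037 probe sets. The submitters' processing notes name affy, and how background and normalization were handled is not stated in any source used here. Deposited values spanned 1.43 to 14.46, from which a log2 scale was inferred, and they were not transformed further. Arrays carry no read depth, so their number limits the precision.

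Of the probe sets, 34945 name 1 gene, 932 several and 9160 are unnamed here. A gene with several was represented by the brightest, by the mean of all 9 arrays. Testing used lmFit and default eBayes of limma 3.58.1 (R 4.3.3), with genotype as the only term, and Benjamini-Hochberg adjustment over 18193 genes. Single probe sets were tested over all 34945. The code was tested on simulated data for this comparison with 18193 genes, 200 of them changed. It recovered 74% of those with a log2 change of 1 and 98% of those with 2, and it called 8 unchanged genes. Simulated noise was normal and independent between genes and arrays, without the unequal array quality of the real data. These rates therefore check the code and need not hold for the real arrays. P-values weigh the difference between the groups against the spread between these samples within a group.

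Members and gene lists were chosen with earlier results of these data known. Named were all members, further pathway genes with an unadjusted p under 0.05, the 2 largest differences per list, and the 3 nearest profiles of 3 members. Genes were described by counts, with no set test. Alternatives were other probe set summaries, a level filter, 2 scalings, trend and robust eBayes, array weights, a replicate block, the Xist level as a covariate and single arrays left out. Leaving out 3 arrays together was added after seeing the data. Markers of 12 tissues and cell types and of sex were read as list means. Ranges not given above were 3.68 to 4.51 in knockout and 3.80 to 7.32 in wildtype for adipocytes. They were 5.15 to 5.43 and 4.39 to 6.09 for Langerhans cells and macrophages and 3.22 to 3.70 and 3.28 to 4.01 for endothelium. For T cells they were 3.44 to 3.61 and 3.16 to 3.84, and for mast cells 3.25 to 3.99 and 2.95 to 4.72.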

Additional observations from a re-analysis of the deposited data

Results flagged for a closer look

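Of 54 groups of arrays examined, for the 14 probe sets and the further pathway genes named above, 1 held an array far from the others, and chance gives about 1 in 20. It was Pla2g4c, a cytosolic phospholipase gene, which read 3.25 on wildtype array 5 and 3.56 to 3.69 on the other wildtype arrays.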

How the results depend on the processing

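With 9 arrays and no detection calls, changes in dim genes such as Ptgs2 could not be separated from background. Under 20 alternatives the 8 members gave 159 values, of which 151 kept both their sign and their side of the threshold. With array weights 1644 genes passed, 3 members and 2 further pathway genes among them. The members were Ptgs2, at 1.05, Ptges, at 0.97, and Pla2g4e, at 0.99, while Hpgd, at -0.20, and Pla2g4a, at 0.079, changed sign. Ptgds changed sign with the Xist covariate, at -0.17, and without knockout array 4 and wildtype arrays 3 and 5 together, at -0.15. With the Xist covariate 9 genes passed and without those 3 arrays 123. Against 226 genes in all, 62 to 281 passed with single arrays left out (62 without knockout array 2, 87 without knockout array 4, and 83, 71 and 89 without wildtype arrays 1, 2 and 4), with 0 to 1 members and 0 further pathway genes, and the difference of Ptgs2 ran from 0.81 to 1.24. Ptgs2 passed without knockout array 3. With the replicate number as a block 119 genes and 0 members passed. The labels do not pair the samples by replicate number. The correlation of deviations was -0.21, -0.10, -0.21 and 0.18 for like numbers 1 to 4, and -0.27 to 0.21 for unlike numbers. Whether samples shared a litter is not given, so the block result stands only here. The filter on level removed Ptgs2. The causes were not tested.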
